A study of Mus musculus with 8 samples.

Results

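The members of the Bcl2 family described here were Bcl2, Bcl2l1, Mcl1, Bak1, Bbc3, Pmaip1, Bcl2l11, Bid and Bcl2l15, regulators of whether a cell enters apoptosis. They were taken from a list of 10 genes, and every probe set that the array annotation assigns to exactly 1 of these genes was used. This gave 28 probe sets for 9 of the 10 genes, out of 45037 probe sets tested on the array. Bax was not analysed here, because none of its probe sets was assigned to it alone in the annotation used.

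Intestinal crypt cells of C57BL/6 mice were freed with EDTA, Dispase and DNase I and sorted by flow cytometry, and their expression was read on 8 mouse arrays from Affymetrix. EphB2 is a receptor that crypt cells carry in a gradient, high at the crypt base and low toward the differentiated cells. EphB2 High, EphB2 Medium and EphB2 Low cells were gated on an antibody against this surface protein, with 2 arrays per group, 1 in each of 2 hybridizations. Lgr5 High and Lgr5 Low cells came from mice whose Lgr5 locus carries an EGFP reporter, were gated on EGFP, and had 1 array each in a hybridization of their own. The gates select on a protein level, so each group is a mixture of the cells within that gate. Each array received material amplified from 25 ng of total RNA. The labels do not say whether the 2 arrays of a group came from separate animals, so the p-values measure only the spread between these arrays, which may be technical.

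Bcl2 family proteins act at the mitochondrial outer membrane. Bcl2, Bcl2l1 (Bcl-xL) and Mcl1 hold apoptosis back, Bak1 and its relative Bax form the pores that release cytochrome c, and the BH3-only proteins Bbc3 (Puma), Pmaip1 (Noxa), Bcl2l11 (Bim) and Bid either block the protective members or activate the pore formers. In the intestinal crypt these proteins are known for setting how readily cells at the base and along the crypt wall die after damage. Bcl2l15 (Bfk) is a less studied relative with expression in the gastrointestinal tract.

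Of the 28 probe sets, 11 (39.3%) differed between EphB2 High and EphB2 Low at an adjusted p below 0.05. The background for that comparison was 27.4% of all probe sets, with 15.4% higher and 11.9% lower in EphB2 High. All 5 that rose in EphB2 High belonged to Bcl2, and the 6 that fell belonged to Mcl1, Bcl2l15, Pmaip1, Bak1 and Bcl2l1. Without the Bcl2 probe sets, 6 of 23 (26.1%) passed, a share near the 27.4% of all probe sets called in either direction. All 6 were falls, and 11.9% of all probe sets were called as falls. Fewer member probe sets passed as falls when any 1 of the EphB2 High or EphB2 Low arrays was left out. Falls over all probe sets were also fewer in these runs, each of which left 1 array in a group. The rises among the members did not become fewer, whereas the share that passed among the 23 probe sets without Bcl2 became smaller. In bulk samples such as these, fewer cells of a type and less RNA per cell cannot be told apart. The median difference was -0.29 (log2) over the 28 probe sets and -0.01 over all probe sets. Levels are deposited log2 values, on which a difference of 1 is a 2-fold change, and the median probe set had a level of 6.17. The test was limma across all 45037 probe sets of the 6 EphB2 arrays, 2-sided, with Benjamini-Hochberg adjustment.

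**Figure D1:**
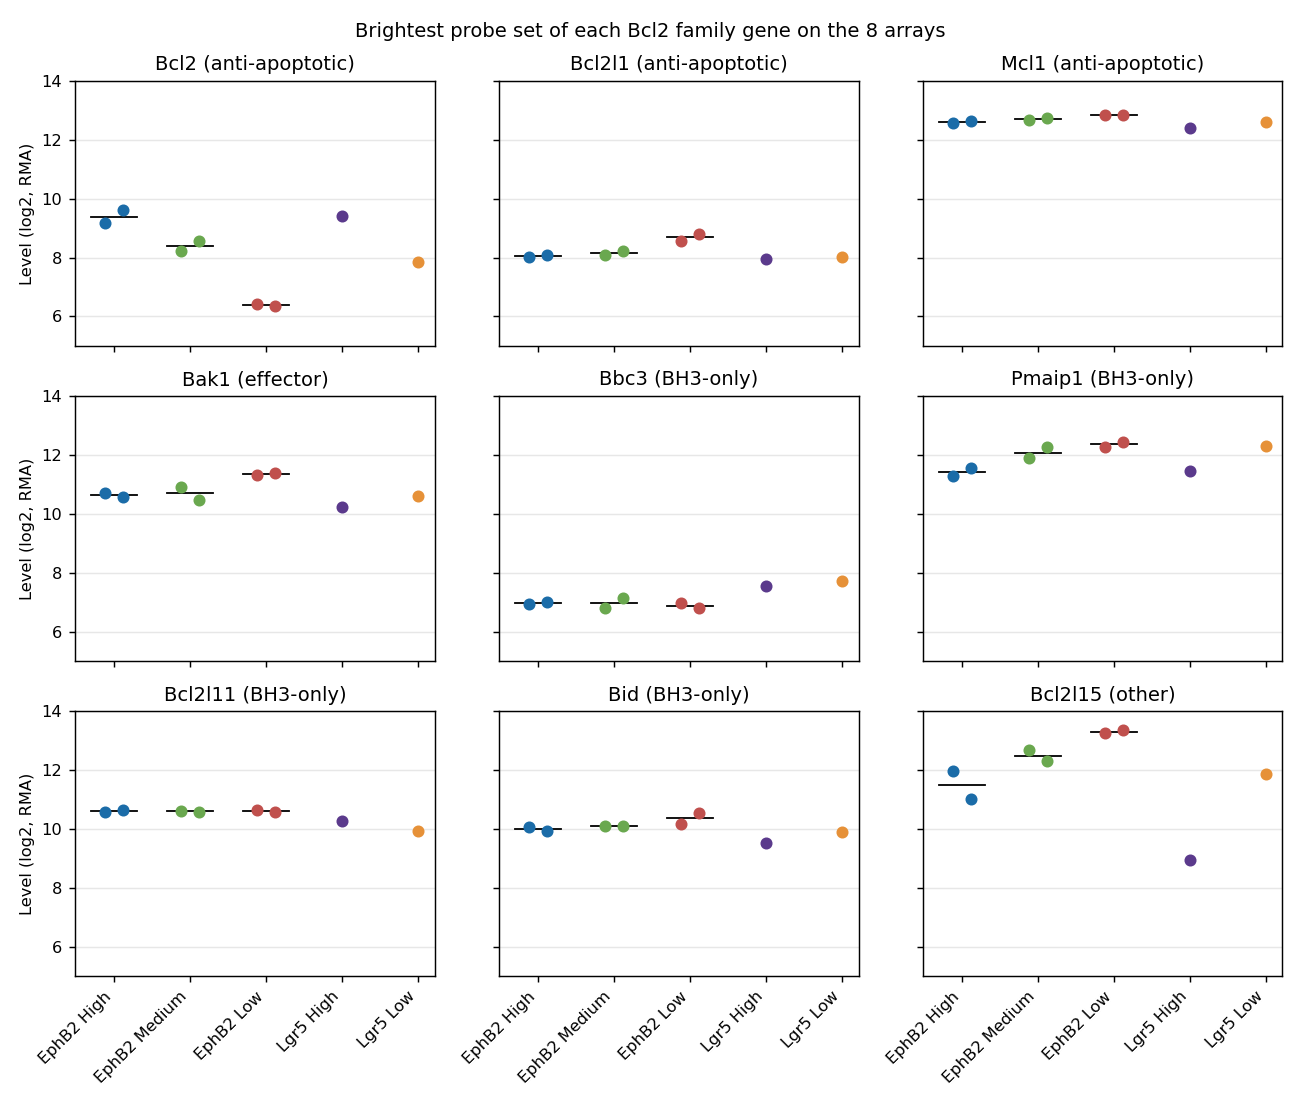
Level of the brightest probe set of each of the 9 genes (log2, vertical axis) on every array, with EphB2 High, Medium and Low and then Lgr5 High and Low from left to right; points are arrays and bars are group means. Bcl2 was at 9.16 and 9.62 in EphB2 High and at 6.41 and 6.37 in EphB2 Low, and Bcl2l15 ran the other way.

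Between EphB2 High and EphB2 Low, Bcl2 had the largest rise and Bcl2l15 the largest fall that passed the test. Mcl1 1416881_at had the fall that passed under all 11 alternative runs that held it. The run with 1 probe set per gene did not hold it. For these reasons the stretches upstream of the annotated starts of these 3 genes are shown. Each is the 250 bases before the RefSeq start, 5′ to 3′ on the gene's own strand. Bcl2 lies at chr1:106714291-106714540 on the minus strand, Mcl1 at chr3:95658471-95658720 on the plus strand, and Bcl2l15 at chr3:103832446-103832695 on the plus strand, all in GRCm38.p6. Capitals mark matches to any of 5 short motifs searched on both strands.
Bcl2 upstream: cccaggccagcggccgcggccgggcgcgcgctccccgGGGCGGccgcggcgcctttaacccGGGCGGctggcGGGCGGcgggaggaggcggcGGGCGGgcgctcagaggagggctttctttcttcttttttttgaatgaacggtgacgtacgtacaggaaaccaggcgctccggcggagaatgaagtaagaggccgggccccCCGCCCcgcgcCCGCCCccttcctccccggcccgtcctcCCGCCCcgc
Mcl1 upstream: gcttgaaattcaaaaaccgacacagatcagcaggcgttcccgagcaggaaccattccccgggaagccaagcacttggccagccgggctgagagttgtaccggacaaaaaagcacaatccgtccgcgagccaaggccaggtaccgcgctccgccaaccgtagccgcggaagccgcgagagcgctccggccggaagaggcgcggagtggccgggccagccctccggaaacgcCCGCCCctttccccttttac
Bcl2l15 upstream: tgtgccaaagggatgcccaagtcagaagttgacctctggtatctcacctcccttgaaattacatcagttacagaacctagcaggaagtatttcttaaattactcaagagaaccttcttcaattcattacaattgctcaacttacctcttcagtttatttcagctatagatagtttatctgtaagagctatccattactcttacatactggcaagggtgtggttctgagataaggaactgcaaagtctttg
The Bcl2 stretch held 7 matches to the GC box, which reads GGGCGG on the gene's strand or CCGCCC where it lies on the other, 36 CpG dinucleotides and a GC content of 74.8%. The Mcl1 stretch held 1 GC box match, 26 CpG and a GC content of 64.4%. The Bcl2l15 stretch held no CpG and no motif match, and its GC content was 38.8%. Over the 32851 RefSeq promoters of the same length, the median GC content was 52.4% and the median number of CpG was 6. The GC box was present in 32.7% of them. The other motifs were the TCF/LEF motif CTTTGAT, present in 3.21% of promoters, the CDX motif TTTATG, in 10.8%, the CCAAT box, in 33.8%, and the TATA box TATAAA, in 12.4%. None of these had a match in the 3 stretches. No motif contains another, although matches could overlap. A match or its absence is a description of these letters and says nothing about binding.

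Bcl2, the founding protective member, was higher in EphB2 High than in EphB2 Low on all 5 of its probe sets, by 3.62-fold to 8.03-fold. The brightest, 1457687_at, had levels of 9.16 and 9.62 in EphB2 High, 8.21 and 8.57 in EphB2 Medium, and 6.41 and 6.37 in EphB2 Low. The EphB2 groups did not overlap, and the EphB2 Low arrays lay close to the level of the median probe set. The difference between EphB2 High and EphB2 Low was 3.01 ± 0.21 (log2, SE, n = 2 arrays per group, limma adjusted p = 0.000843). It was 2.75 within the first hybridization and 3.26 within the second. It ranked 108th from the top among the 45037 probe sets.

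The second Bcl2 probe set, 1437122_at, read 8.71 and 8.75 in EphB2 High, 7.63 and 7.64 in EphB2 Medium, and 5.95 and 6.01 in EphB2 Low. Its replicates were within 0.07 of each other in every group, and its difference of 2.75 ± 0.12 had an adjusted p of 0.000376. Probe set 1440770_at read 7.50 and 7.19 in EphB2 High, 6.53 and 6.38 in EphB2 Medium, and 5.20 and 4.86 in EphB2 Low. The drop in level was again stepwise, with a difference of 2.31 ± 0.18 (log2, adjusted p = 0.00122). The remaining 1443837_x_at and 1422938_at differed by 1.96 ± 0.27 (adjusted p = 0.00488) and 1.86 ± 0.21 (adjusted p = 0.00302). All 5 kept their call under every alternative run that held them, although the run with 1 probe set per gene held only 1457687_at. They had pairwise correlations between 0.93 and 0.99 over the 8 arrays, which share hybridizations. On 1443837_x_at the mean over the EphB2 arrays lay below the median probe set, and the suffix x marks probe sets whose probes may also match other transcripts.

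Mcl1, the protective member with a short-lived protein, moved the opposite way from Bcl2. Its 6 probe sets were all lower in EphB2 High by their means, and 2 of them passed the test. Probe set 1416881_at had levels of 10.71 and 10.85 in EphB2 High, 11.04 and 11.10 in EphB2 Medium, and 11.73 and 11.65 in EphB2 Low. The groups did not overlap, and the difference was -0.91 ± 0.13 (log2, SE, n = 2 arrays per group, adjusted p = 0.00524). It was called under all 11 alternatives that held it. The run with 1 probe set per gene read Mcl1 through 1416880_at instead, which was not called there. Probe set 1456381_x_at read 11.61 and 11.75 in EphB2 High, 11.85 and 11.99 in EphB2 Medium, and 12.30 and 12.26 in EphB2 Low. Its difference was -0.60 ± 0.13 (adjusted p = 0.0219), and the call ended when either EphB2 High or either EphB2 Low array was left out, with an adjusted p of up to 0.113.

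The other 4 Mcl1 probe sets did not pass. Probe set 1448503_at had a difference of -0.58 ± 0.18 (limma adjusted p = 0.0629). It passed with the hybridization as a block (adjusted p = 0.0223) and with a filter at the median level (adjusted p = 0.0344). The remaining 3 differed by -0.30 (1456243_x_at), -0.27 (1437527_x_at) and -0.22 (1416880_at), with adjusted p between 0.141 and 0.259. Of these, 1416880_at read 12.57 and 12.66 in EphB2 High against 12.83 and 12.83 in EphB2 Low. With a variance trend in the fit, all 6 passed, and 13758 probe sets passed over the whole table, against 12335 without the trend. The size of the fall therefore depended on the probe set. No Mcl1 probe set overlapped between EphB2 High and EphB2 Low, which also held for 62.9% of all probe sets.

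**Figure D2:**
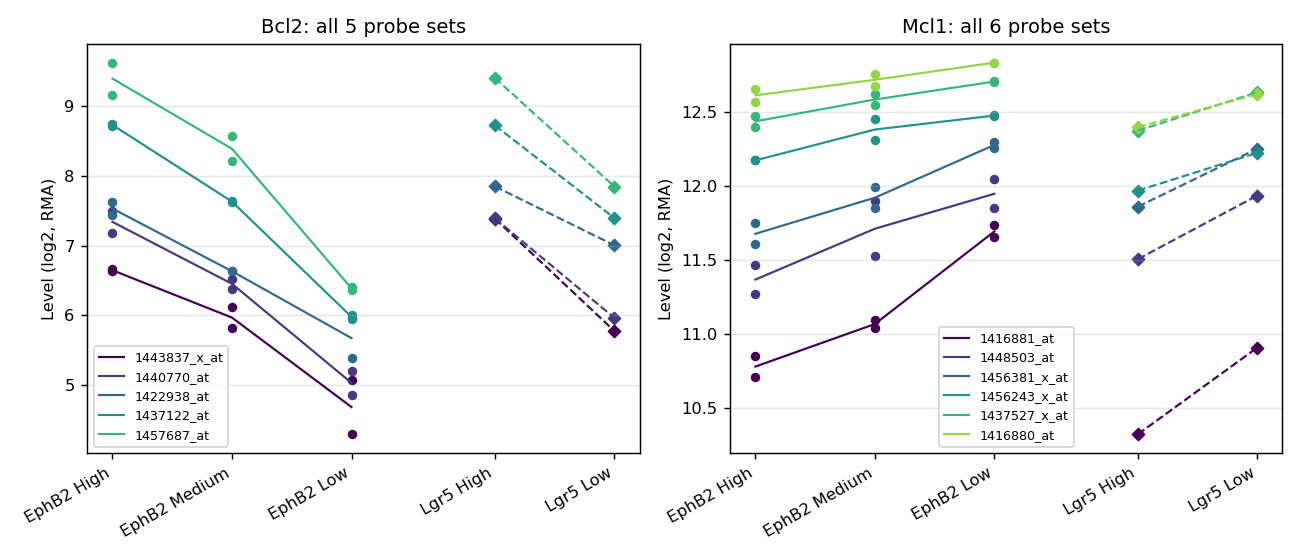
Levels (log2, vertical axis) of the 5 Bcl2 probe sets (left) and the 6 Mcl1 probe sets (right) in each group; points are EphB2 arrays with lines through the group means, and diamonds are the single Lgr5 arrays. In both sorts every Bcl2 probe set was higher, and every Mcl1 probe set lower, at the high end of the gate, with 2 of the 6 Mcl1 probe sets passing the test in the EphB2 sort and no test in the Lgr5 sort.

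Bcl2l1, which encodes the protective protein Bcl-xL, was lower in EphB2 High on all 4 of its probe sets by their means, and 1 passed the test. That probe set, 1420888_at, was the brightest and read 8.02 and 8.09 in EphB2 High, 8.09 and 8.24 in EphB2 Medium, and 8.57 and 8.81 in EphB2 Low. EphB2 High and Medium lay together and EphB2 Low lay apart, with a difference between High and Low of -0.64 ± 0.15 (log2, adjusted p = 0.0242). The call ended without either EphB2 High array or without EphB2 Low replicate 2, where the adjusted p reached 0.113. The other 3 probe sets differed by -0.30 (1420887_a_at), -0.24 (1426050_at) and -0.12 (1426191_a_at), and their adjusted p lay between 0.247 and 0.823. The levels on 1426191_a_at overlapped between the groups, and 1426050_at was far below the median probe set, at 3.05 to 3.60 over the 8 arrays. Correlations among the 4 probe sets ran from -0.10 to 0.81 over the 8 arrays.

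Bak1, the pore-forming member measured here, was lower in EphB2 High on its bright probe set. Probe set 1418991_at read 10.72 and 10.57 in EphB2 High, 10.92 and 10.48 in EphB2 Medium, and 11.32 and 11.39 in EphB2 Low. EphB2 High and Medium overlapped, and both EphB2 Low arrays lay above them. The difference between High and Low was -0.71 ± 0.18 (log2, SE, n = 2 arrays per group, adjusted p = 0.0346). The call ended when any 1 of the EphB2 High or EphB2 Low arrays was left out, with an adjusted p of 0.165 without EphB2 High replicate 2. The dimmer 1425716_s_at differed by -0.27 ± 0.18 (adjusted p = 0.332).

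Among the BH3-only genes, Pmaip1 was the only gene of the 4 with a call. Pmaip1 encodes Noxa, which binds and neutralises Mcl1. Its probe set 1418203_at read 11.30 and 11.55 in EphB2 High, 11.89 and 12.27 in EphB2 Medium, and 12.28 and 12.44 in EphB2 Low. The 3 groups followed each other without overlap, although the highest EphB2 Medium array almost met the lowest EphB2 Low array. The difference between High and Low was -0.93 ± 0.18 (log2, adjusted p = 0.0148), a level 1.91-fold lower in EphB2 High. It was -0.98 within the first hybridization and -0.89 within the second. The call ended without either EphB2 High array or without EphB2 Low replicate 2, and the adjusted p reached 0.0805.

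Bbc3, the p53 target Puma, had 1 probe set, 1423315_at, at 6.94 and 7.0 in EphB2 High, 6.81 and 7.15 in EphB2 Medium, and 6.96 and 6.80 in EphB2 Low. The groups overlapped, and the difference of 0.09 ± 0.16 had an adjusted p of 0.760.

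Bid, which caspase-8 cuts to link death receptors to mitochondria, had 3 probe sets and no call. The bright 1417045_at read 10.06 and 9.95 in EphB2 High, 10.09 and 10.09 in EphB2 Medium, and 10.18 and 10.54 in EphB2 Low, a difference of -0.36 ± 0.16 (adjusted p = 0.173). The other two differed by 0.03 (1448560_at, adjusted p = 0.914) and by -0.73 (1447873_x_at, adjusted p = 0.0999). The last of these lay below the median probe set, and without EphB2 Low replicate 1 it was called at -1.07 (adjusted p = 0.0376).

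Bcl2l11, which encodes the BH3-only activator Bim, had 5 probe sets that did not follow each other, with correlations from -0.16 to 0.66 over the 8 arrays. The brightest, 1435448_at, was flat, at 10.58 and 10.63 in EphB2 High, 10.63 and 10.59 in EphB2 Medium, and 10.65 and 10.60 in EphB2 Low. Its difference was -0.01 ± 0.12 (log2, adjusted p = 0.95). Probe set 1435449_at read 6.26 and 6.38 in EphB2 High, 6.04 and 6.33 in EphB2 Medium, and 5.01 and 7.09 in EphB2 Low. The 2 EphB2 Low arrays lay on either side of all the others, so the difference was 1.26 within the first hybridization and -0.71 within the second (0.27 ± 0.63 with both, adjusted p = 0.806). Without EphB2 Low replicate 2 it was 1.31 with an adjusted p of 0.0179, and without EphB2 Low replicate 1 it was -0.77 with an adjusted p of 0.0503. The other 3 probe sets differed by -0.45 (1456005_a_at), -0.74 (1426334_a_at) and -0.35 (1456006_at), none with an adjusted p below 0.245.

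Bcl2l15 had the largest fall among the probe sets that passed. Probe set 1452614_at read 11.99 and 11.03 in EphB2 High, 12.68 and 12.31 in EphB2 Medium, and 13.28 and 13.35 in EphB2 Low. The 3 groups did not overlap, with EphB2 Low highest. The difference was -1.81 ± 0.32 (log2, adjusted p = 0.0107), 3.50-fold lower in EphB2 High. It was -1.29 within the first hybridization and -2.32 within the second, and the call ended without EphB2 Low replicate 2 (adjusted p = 0.0604). This was the 1180th lowest difference of the 45037 probe sets.

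**Figure D3:**
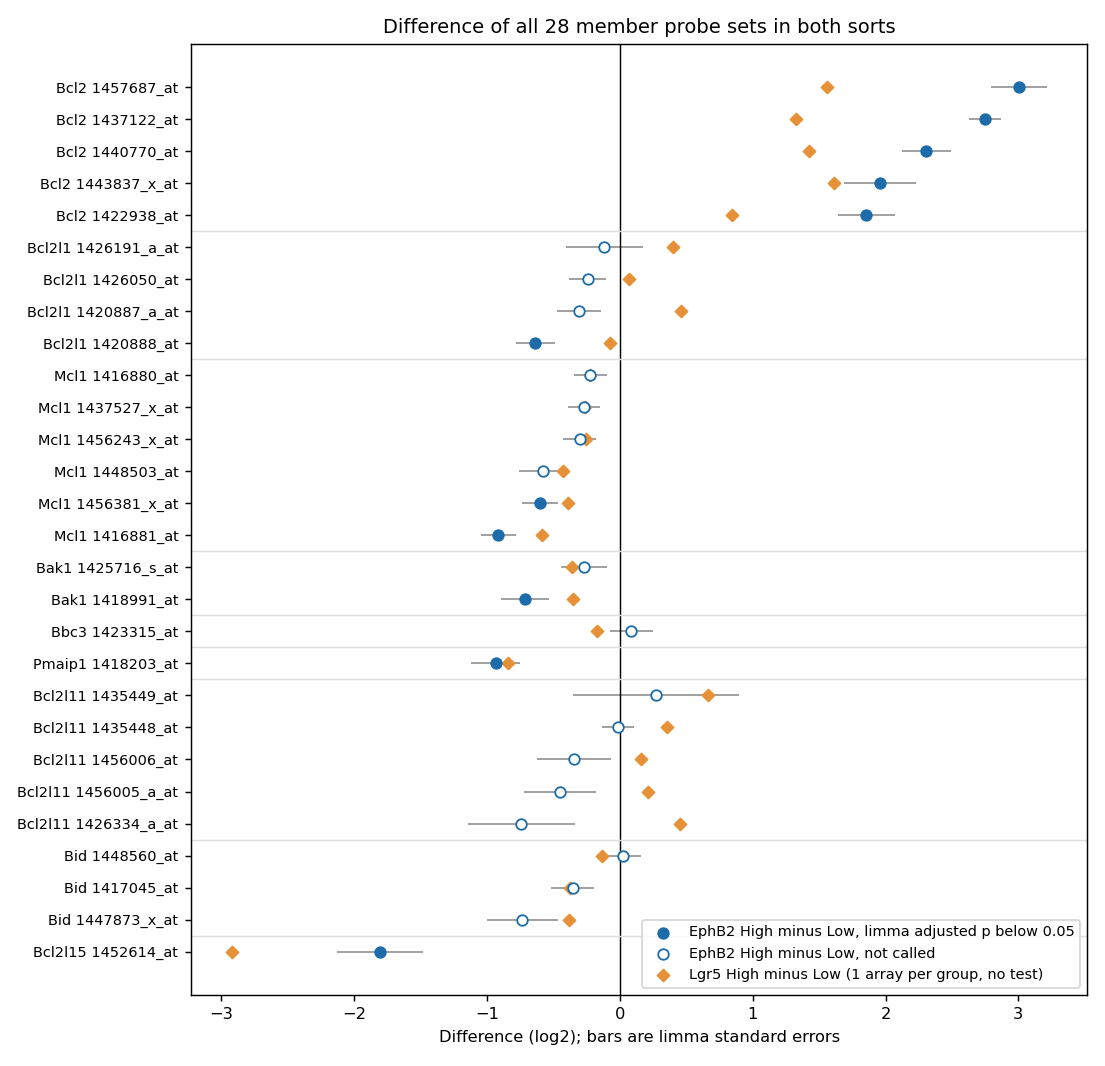
Differences between EphB2 High and EphB2 Low (log2, horizontal axis) for the 28 probe sets as circles with SE bars, filled where the adjusted p was below 0.05, and differences between Lgr5 High and Lgr5 Low as diamonds. In the EphB2 sort the Bcl2 probe sets lie between 1.86 and 3.01, and Bcl2l15 lies at -1.81.

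EphB2 Medium cells were set against EphB2 Low cells to place the middle gate. The comparison called 6 of 28 probe sets (21.4%), against 15.3% of all probe sets (8.54% higher and 6.78% lower). Outside Bcl2, 1 of 23 probe sets (4.35%) passed, a share below that background. The 5 Bcl2 probe sets rose by 0.96 to 2.00, and the Mcl1 probe set 1416881_at fell by 0.63 (adjusted p = 0.0297). The call on Bcl2 1437122_at, 1.65 with a limma adjusted p of 0.00398, held under all 11 alternatives that included it. Each of the other 5 calls ended under at least 1 alternative. On 1457687_at the difference was 2.00 (adjusted p = 0.00705), and without EphB2 Medium replicate 2 the adjusted p was 0.0524. On the Mcl1 probe set the call ended in 7 of 11 alternatives, with an adjusted p of 0.132 without EphB2 Medium replicate 1. For Pmaip1 the difference was -0.28 (adjusted p = 0.391) and for Bcl2l15 it was -0.82 (adjusted p = 0.160). Bcl2l1 1420888_at differed by -0.52 (limma adjusted p = 0.0656). It passed with the hybridization as a block (adjusted p = 0.0414), repeated quantile normalization (0.0499), a filter at the median level (0.0291) and 1 probe set per gene (0.0379). Bak1 1418991_at differed by -0.65 (adjusted p = 0.0674) and passed with that filter (0.0350), 1 probe set per gene (0.0430) and a variance trend (0.0257). Mcl1 1456381_x_at, at -0.36, passed with the trend (0.0314). Over all probe sets the block, the normalization and the trend gave 8684, 7028 and 8879 calls, against 6900.

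EphB2 High cells set against EphB2 Medium cells gave 1 call among the 28 probe sets, against a background of 0.300% of all probe sets (0.0178% higher and 0.282% lower). This was Bcl2 1437122_at, higher by 1.10 ± 0.12 (adjusted p = 0.0470), a difference that lost its call in 8 of 11 alternatives, including the hybridization as a block (adjusted p = 0.0599). The brightest Bcl2 probe set differed by 1.01 (adjusted p = 0.182). None of the 23 probe sets of the other genes passed in limma, and 2 of them had an unadjusted p below 0.05. Bcl2l15 had a difference of -0.99 (adjusted p = 0.384) and Pmaip1 one of -0.65 (adjusted p = 0.319). Since the 3 EphB2 comparisons share arrays, their values are given side by side and no overlap between them was tested.

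Over the 3 EphB2 groups, 5 probe sets stepped down from High through Medium to Low with no overlap between neighbours, all of them of Bcl2, and 8 stepped up. The 8 were 5 Mcl1 probe sets, Pmaip1, Bid 1417045_at and Bcl2l15. In the whole table, 13.0% of probe sets stepped down and 10.2% stepped up without overlap. Taken pair by pair, 21 of the 28 probe sets did not overlap between EphB2 High and Low (62.9% of all probe sets), 20 between Medium and Low (56.4%) and 15 between High and Medium (42.2%). In the stepwise reading, the remaining 15 probe sets overlapped between at least 1 pair of neighbouring groups. The median gap between the 2 replicates of a member probe set was 0.13 in EphB2 High, 0.17 in EphB2 Medium and 0.18 in EphB2 Low, and the largest gap, 2.08, was that of Bcl2l11 1435449_at in EphB2 Low.

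The Lgr5 sort offered a second way to set stem cells against other crypt cells, with 1 array per group and so no test and no replicate check. Of the 28 probe sets, 5 differed by at least 2-fold, against 6.99% of all probe sets (2.31% higher and 4.68% lower). Those higher in Lgr5 High were 4 of the 5 Bcl2 probe sets, and the 1 lower was Bcl2l15. Bcl2 1457687_at read 9.40 in Lgr5 High and 7.85 in Lgr5 Low, a difference of 1.56 (2.94-fold). Bcl2l15 read 8.93 in Lgr5 High and 11.86 in Lgr5 Low, a difference of -2.92 (7.58-fold lower) that ranked 198th from the bottom. Lgr5 High had the lowest Bcl2l15 level of the 8 arrays.

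Pmaip1 read 11.45 in Lgr5 High and 12.29 in Lgr5 Low, 1.80-fold lower in Lgr5 High. All 6 Mcl1 probe sets were lower in Lgr5 High, by 0.22 to 0.59 on the log2 scale, and Bak1 1418991_at differed by -0.35. Bcl2l1 1420888_at differed by -0.07. All 5 Bcl2l11 probe sets were higher in Lgr5 High, by 0.16 to 0.66. Bbc3 read 7.55 in Lgr5 High and 7.72 in Lgr5 Low, and both lay above all 6 EphB2 arrays. The Lgr5 arrays had a hybridization of their own, so a gap in level between the sorts cannot be told apart from a gap between hybridizations.

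Markers of the crypt's cell types followed the EphB2 gates. All 12 stem cell markers measured rose in EphB2 High relative to EphB2 Low, with Lgr5, Ascl2, Igfbp4, Mex3a and Rgmb higher by 2.10 to 4.25 (log2). All 12 enterocyte markers fell, among them Treh, Slc2a5, Apoa4, Mep1b and Anpep. Of 8 Paneth cell markers 7 rose, among them Pla2g2a, Defa3, Mmp7, Wnt3 and Itln1, and 4 did without EphB2 High replicate 2. The log2 of the summed enterocyte level was 15.25 and 15.29 in EphB2 High, 16.26 and 16.31 in EphB2 Medium, and 17.29 and 17.35 in EphB2 Low. In the Lgr5 sort it was 14.71 in Lgr5 High and 16.64 in Lgr5 Low. These levels moved with those of Bcl2l15, Pmaip1 and Mcl1, and their part in the results was not tested. The summed Paneth level was 15.70 and 15.86 in EphB2 High and 14.88 and 14.96 in EphB2 Low, but 15.81 in Lgr5 High and 16.31 in Lgr5 Low. The part of the Paneth level in the Bcl2 results was not tested.

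Lymphocytes, another source of Bcl2 signal in gut tissue, were checked with 15 measured markers. Only 2 of the 15 lay above the median probe set, and Ptprc (CD45) read 3.40 to 4.03 over the 8 arrays. The log2 of their summed level was 9.259 and 9.129 in EphB2 High, 9.296 and 9.131 in EphB2 Medium, and 9.350 and 9.159 in EphB2 Low. The groups overlapped, but within both hybridizations the level was lowest in EphB2 High and highest in EphB2 Low. The part of this in the results was not tested. The summed level was 9.52 in Lgr5 High and 9.21 in Lgr5 Low, where Gzma alone read 7.05 and 4.04. In EphB2 High 1 marker was higher and 3 were lower: Cd79b (0.99), Cd52 (-1.72), Gzma (-2.04) and Cd3d (-0.75). The call on Cd3d ended in 8 of 11 alternatives, the hybridization as a block among them (adjusted p = 0.063), and that on Cd79b ended in 5 of 12. Cd3e, the fifth by its p, differed by -0.35 (adjusted p = 0.114). The difference of Gzma was -1.30 without EphB2 Low replicate 1 and -2.78 without EphB2 Low replicate 2, and it had no call under 3 of 11 alternatives; Cd52 kept its call in all 11.

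The genes with the pattern most like Bcl2 1457687_at over the 8 arrays were Il1rap, Smo, Cep97, Cyp11a1 and Nemp1, with Pearson r between 0.993 and 0.996. Il1rap is a co-receptor for interleukin-1 family signals and Smo transduces Hedgehog signals. Of 10908 genes, 743 had an r above 0.95. For Bcl2l15 the closest were Paqr4, Elovl6 (a fatty acid elongase), Trappc10, Erp44 (a chaperone of the secretory pathway) and Mylk (myosin light chain kinase), with r between 0.989 and 0.994. For Bcl2l15, 106 of 10908 genes had an r above 0.95. Pearson r takes no account of size. Between EphB2 High and EphB2 Low the genes named for Bcl2l15 differed by -0.24 (Erp44) to -1.02 (Mylk), against -1.81 for Bcl2l15. Those named for Bcl2 differed by 1.49 (Il1rap) to 3.48 (Smo), against 3.01 for Bcl2 1457687_at. The arrays share hybridizations and gates, and these correlations are given as descriptions.

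The remaining parts of the death pathway were read from lists, each gene through its brightest probe set; over all 18193 genes read that way, 32.8% were called, with 19.6% higher and 13.2% lower in EphB2 High than in EphB2 Low. The 12 other Bcl2 family genes measured gave 2 rises, 2 falls and 8 without a call, and their median difference was -0.11. Bik, a BH3-only gene whose mean level lay below the median probe set, rose by 2.03 ± 0.31 (adjusted p = 0.00656). Bcl2l12 rose by 1.34 ± 0.23 (adjusted p = 0.00946). Bnip3, a BH3-like gene of mitophagy and hypoxia, read 7.88 and 7.85 in EphB2 High and 9.85 and 10.17 in EphB2 Low, a difference of -2.15 ± 0.15 (adjusted p = 0.000918). Bad, which antagonises the protective members, fell by 1.08 on the log2 scale (adjusted p = 0.00749). Bmf, another BH3-only gene, differed by -0.47 (adjusted p = 0.0771). The call on Bcl2l12 ended without EphB2 High replicate 2 (adjusted p = 0.0636).

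Downstream of the mitochondrion, 22 genes of the apoptosome, the caspases and their inhibitors gave 4 rises, 4 falls and 14 without a call, with a median of -0.19. Casp6, an executioner caspase, fell by 1.19 on the log2 scale (adjusted p = 0.00328). Htra2, a mitochondrial protease that antagonises the inhibitors of apoptosis, rose by 1.01 (adjusted p = 0.00708). Casp14, whose mean level lay below the median probe set, rose by 2.10 (adjusted p = 0.00476), and Casp12 rose by 1.43 (adjusted p = 0.00849). The inhibitor Birc3 fell by 0.65 (adjusted p = 0.0139). The calls on Casp12 and Birc3 ended when EphB2 High replicate 2 or EphB2 Low replicate 2 was left out, and that on Birc3 also without EphB2 High replicate 1. With a variance trend 8 of the 22 genes fell, and falls over all probe sets went from 5378 to 6047. Fewer of the 22 fell without EphB2 High replicate 1, High replicate 2 or Low replicate 2, and fewer rose without EphB2 High replicate 2.

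The death receptor list held the largest fall of these lists. Fas, the receptor for Fas ligand, read 7.18 and 7.14 in EphB2 High, 8.61 and 8.61 in EphB2 Medium, and 10.72 and 11.05 in EphB2 Low. The 3 groups lay well apart, and the difference between High and Low was -3.73 ± 0.15 (log2, SE, n = 2 arrays per group, adjusted p = 0.000347), 13.3-fold lower in EphB2 High. Fas was also lower in EphB2 High than in EphB2 Medium, at -1.45 (adjusted p = 0.0461), although between these groups no probe set kept a call with any array left out. The 13 receptor genes measured gave 1 rise, 3 falls and 9 without a call, around a median of -0.17. Tnfrsf1a (TNF receptor 1) fell by 0.99 (adjusted p = 0.00818), and Cflar, the caspase-8 inhibitor c-FLIP, fell by 0.71 (adjusted p = 0.0153). Tradd, an adaptor of the TNF receptor, differed by -0.34 (adjusted p = 0.0977). Tnfrsf21 rose by 0.58 (adjusted p = 0.0291), and its call ended in 7 of the 12 alternatives. That on Tnfrsf1a ended without EphB2 High replicate 2, and that on Cflar without EphB2 High replicate 1 or EphB2 Low replicate 2.

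**Figure D4:**
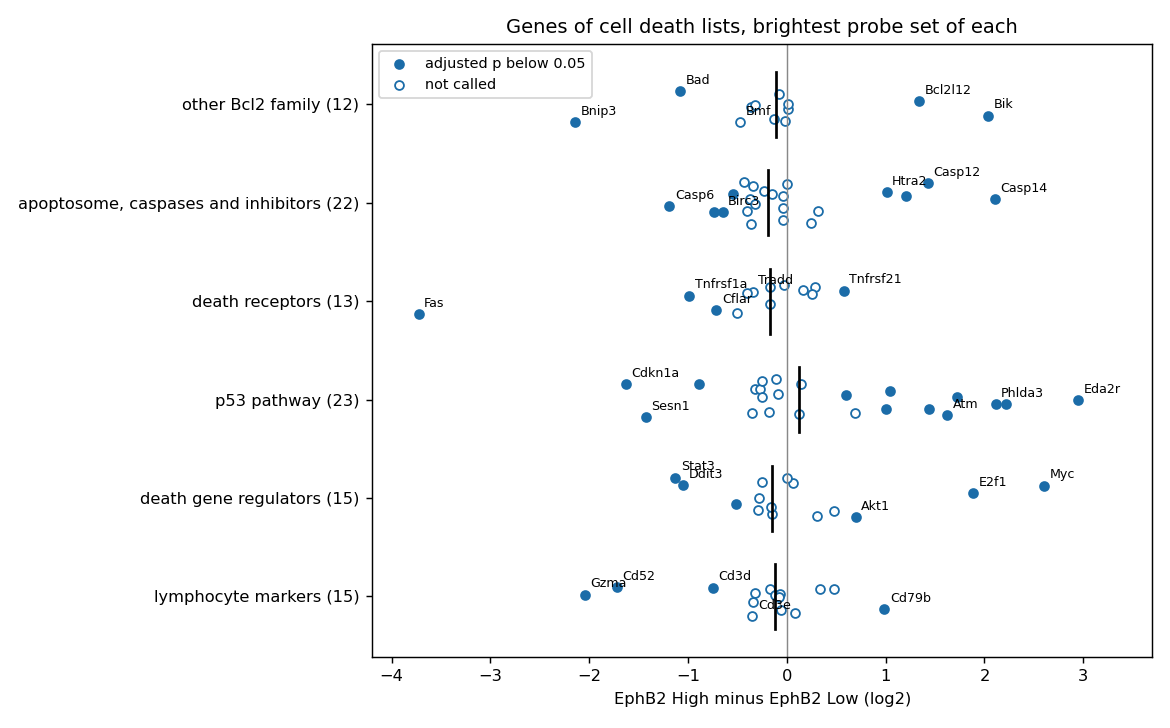
Differences between EphB2 High and EphB2 Low (log2, horizontal axis) for the measured genes of the lists, 1 point per gene, with the named genes labelled, filled points for those that passed, and a vertical bar at each list's median. Fas lies at -3.73 and Eda2r at 2.95.

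Genes of the p53 pathway were split. The 23 measured gave 9 rises, 3 falls and 11 without a call, around a median of 0.12. Eda2r, a p53-induced receptor, rose by 2.95 ± 0.32 (adjusted p = 0.00263), Phlda3 by 2.11 (adjusted p = 0.00254) and the damage kinase gene Atm by 1.63 (adjusted p = 0.00265). The mean levels of Eda2r and Phlda3 lay below the median probe set. The cell cycle inhibitor Cdkn1a (p21) fell by 1.63 (adjusted p = 0.00245) and Sesn1 by 1.43 (adjusted p = 0.00204). With a variance trend in the fit, 5 fell, and falls over all probe sets went from 5378 to 6047. Leaving an array out could lower the number of rises that passed, while the number of falls did not change. In every such run fewer probe sets passed over the whole table. Trp53 itself was not analysed here.

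The 15 genes known to regulate death genes gave 3 rises, 3 falls and 9 without a call, around a median of -0.16. Myc read 10.95 and 11.09 in EphB2 High and 9.14 and 7.68 in EphB2 Low, a rise of 2.61 ± 0.45 (adjusted p = 0.00936). That rise was 1.88 without EphB2 Low replicate 2 and 3.33 without EphB2 Low replicate 1, and its call ended without EphB2 High replicate 2 (adjusted p = 0.0589). E2f1, a cell cycle factor, rose by 1.88 (adjusted p = 0.00425) and the survival kinase gene Akt1 by 0.70 (adjusted p = 0.0310). Stat3 fell by 1.13 (adjusted p = 0.00682) and the stress factor Ddit3 (CHOP) by 1.05 (adjusted p = 0.0162). The call on Akt1 ended in 6 of 12 alternatives, and that on Ddit3 without EphB2 Low replicate 1 or EphB2 High replicate 2, each of which left 1 fall; without EphB2 High replicate 2, 1 rise was left. Of the 85 genes measured in these 5 lists, 5 (5.88%) differed by at least 2-fold in the Lgr5 sort, against 7.41% of all genes read through their brightest probe set.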

How the data were processed

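Total RNA from sorted mouse intestinal crypt cells was hybridized to 8 Affymetrix arrays. The deposited log2 values were made by RMA, per the submitters' processing notes; neither its version nor whether all arrays were normalized together is given in the sources used here. The procedure makes the arrays' distributions nearly equal (medians between 6.12 and 6.20), which hides any change in the amount of RNA a cell holds. From 45101 probe sets, 64 controls were left out. Of the rest, 34945 carried 1 gene name, 932 several and 9160 none here. The EphB2 groups were compared with limma 3.58.1 in R 4.3.3 (group means, empirical Bayes, 3 residual degrees of freedom, 2-sided). Benjamini-Hochberg adjustment was over 45037 probe sets. The same fit was run on simulated data with independent noise on each array. That run cannot show how the fit behaves where arrays share a hybridization. The Lgr5 groups, 1 array each, were compared by difference alone, counted from 2-fold.

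Replicate numbers mark a shared hybridization in the labels, so they pair the arrays; deviations from group means correlated at 0.47 between EphB2 High and Medium, 0.18 between High and Low and 0.26 between Medium and Low. Alternatives were this block, repeated quantile normalization, a filter at the median level, 1 probe set per gene, a variance trend, only the 2 groups compared, and each array left out. The members and lists were chosen with earlier results of these data known. Every member probe set was reported, up to 5 genes per list with the smallest p between EphB2 High and Low, and the 5 genes most like the members with the largest rise and fall. Promoters are from RefSeq, and 8 of the 9 measured genes matched. The number of arrays limits the precision.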

Additional observations from a re-analysis of the deposited data

Results flagged for a closer look

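On 4 probe sets the 2 sorts pointed opposite ways, with the EphB2 difference negative within both hybridizations and the Lgr5 difference positive; the difference between the sorts was not tested, and the Lgr5 sort has 1 array per group. Bcl2l1 1420887_a_at differed by 0.46 (log2) between Lgr5 High and Lgr5 Low, and by -0.57 and -0.04 between EphB2 High and EphB2 Low. Bcl2l1 1426050_at differed by 0.0708 in the Lgr5 sort and by -0.22 and -0.26 in the EphB2 sort. Its levels were far below the median probe set, at 3.05 to 3.60. That Lgr5 difference was smaller than the median replicate gaps of the members in the EphB2 groups (0.13 to 0.18). Bcl2l11 1456005_a_at differed by 0.21 in the Lgr5 sort and by -0.21 and -0.70 in the EphB2 sort. Bcl2l11 1456006_at differed by 0.16 in the Lgr5 sort and by -0.11 and -0.59 in the EphB2 sort. The mean level of 1456006_at over the EphB2 arrays lay below the median probe set. No group held enough arrays for a test of single outlying arrays.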

How the results depend on the processing

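Between EphB2 High and EphB2 Low, 12335 probe sets and 11 of the 28 member probe sets were called. The replicate block called 14347 and 12, and the variance trend called 13758 and 15. With 1 probe set per gene, 6792 genes and 5 of 9 members were called. With 1 array left out, between 5898 and 10728 probe sets and between 7 and 11 members were called. Between EphB2 Medium and EphB2 Low, the replicate block gave 8684 probe sets and 7 members against 6900 and 6. With 1 probe set per gene there were 4489 genes and 3 members, and with only the 2 groups in the fit 4191 probe sets and 3 members. Leaving out 1 array gave 531 to 6240 probe sets and 1 to 6 members, the lowest being 531 without EphB2 Medium replicate 2 and 908 without its replicate 1, then 2084 once EphB2 Low replicate 2 was dropped. Between EphB2 High and EphB2 Medium, the main 135 probe sets became 81 with the replicate block, 299 with the filter at the median level, 248 with 1 probe set per gene and 470 with the variance trend. With only those 2 groups in the fit 0 passed in limma (5326 at an unadjusted p below 0.05), and 0 passed with any array left out (2741 to 5326 unadjusted). The 1 member call became 0 with the replicate block, with 1 probe set per gene, with only the 2 groups, and with any array left out. In the Lgr5 sort, the filter left 1559 probe sets at least 2-fold apart, against 3147, and 4 members. The sign of the EphB2 High minus EphB2 Low difference turned on 5 uncalled probe sets: Bid 1448560_at was -0.030 after repeated quantile normalization and -0.0546 to 0.108 with arrays left out, Bcl2l1 1426191_a_at ran from -0.50 to 0.27, Bcl2l11 1435448_at from -0.0408 to 0.0111, Bcl2l11 1435449_at from -0.77 to 1.31, and Bcl2l11 1456006_at from -0.72 to 0.0251. Fewer features tested or fewer arrays are part of the filter, of 1 probe set per gene and of the settings without arrays; for the others the cause was not tested. Of the 42 named list genes that were called, 29 kept the call in every alternative that held the gene. These alternatives for the lists were chosen after seeing the data. Dim probe sets near or below the median level, such as Bcl2l1 1426050_at, limit what can be said of those members.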

Other observations

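The 5 genes of the death pathway lists that differed by at least 2-fold in the Lgr5 sort were Fas, Cdkn1a, Casp12, Casp14 and Myc. Fas read 6.60 in Lgr5 High and 8.88 in Lgr5 Low, 4.85-fold lower in Lgr5 High. Cdkn1a, the p21 cell cycle inhibitor, read 10.75 in Lgr5 High and 12.01 in Lgr5 Low, 2.40-fold lower. Casp12, Casp14 and Myc were higher in Lgr5 High, by 3.24-fold, 3.08-fold and 2.20-fold. Casp14 stayed below the median probe set on both Lgr5 arrays, at 5.23 in Lgr5 High and 3.60 in Lgr5 Low. Gzma, the lymphocyte granule protease, was higher in Lgr5 High by 3.0 on the log2 scale, whereas it was lower in EphB2 High. With 1 array per group these values have no replicate check.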
